A study of Homo sapiens with 5 samples.

Results

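The *MYC* and *MAX* network was described here by the mRNAs of its 10 genes, *MYC*, *MAX*, *MXD1*, *MXD3*, *MXD4*, *MXI1*, *MNT*, *MLX*, *MLXIP*, and *MGA*, which were listed by name with earlier results of these data known. All 10 had a row among the 27328 Ensembl genes of the count table, and 9 of them passed the filter on low counts. RNA-seq had been performed on TF-1, a human AML cell line that depends on GM-CSF or a related cytokine for growth. Every library came from a pool of single-cell clones that had been transduced lentivirally with *Cas9* and an sgRNA, so that the control cells carried *Cas9* as well. The 2 control libraries were sgCtrl pools 1 and 2, whose sgRNA targets *renilla luciferase*, and the 3 *MTSS1* knockout libraries were pools of clones made with sgMTSS1_1, sgMTSS1_2, or sgMTSS1_3. Values are given in this order throughout, control pool 1 before 2 and knockout pools by the number of their sgRNA. A replicate is a pool of 4 clones of 1 cell line, each knockout replicate has its own sgRNA, and *MTSS1* knockout had been verified at the protein level by the authors. A further pool of each group, sgCtrl pool 3 and the sgMTSS1_4 pool, was not analysed here. The authors had excluded both after an outlier test on expression, so the spread between the remaining pools may understate that between all pools. The comparison asks how loss of *MTSS1*, which encodes a scaffold protein linking membranes and actin, changes these mRNAs.

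Proteins of this network share a basic helix-loop-helix leucine zipper region and act as pairs. MYC binds DNA only together with MAX, at E-boxes with the core letters CACGTG, and the pair activates genes of cell growth. The MXD proteins, MXI1, and MNT compete with MYC for MAX and bring the SIN3 corepressor with its histone deacetylases to the same sites. MGA pairs with MAX inside a variant of the polycomb repressive complex 1. MLX takes the place of MAX for MLXIP, also called MondoA, which responds to glucose metabolites. In blood cells, *MYC* drives progenitor growth, and its fall with a rise of MXD proteins accompanies maturation.

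E-boxes in the network's own promoters were located in RefSeq promoter windows of 300 bases on GRCh38.p14, from 250 bases before to 50 after each annotated start. The exact letters CACGTG, which read the same on both strands, were found in 3 of 14 windows of 9 members, and in 7.26% of all 35116 windows. The stretches with a match are shown because their E-box is the site type that MYC with MAX and the antagonists with MAX bind. They are written 5′ to 3′ on the strand of the gene, with the E-box in capitals, and only as far as the gene annotated in GENCODE. Distances are counted from the RefSeq start. For *MNT* and *MLX* the GENCODE gene begins before that start, so their stretches of 206 and 222 bases end short of it. *MXD4* (chr4:2262110-2262359, minus strand) has its E-box 238 bases before the start, *MNT* (chr17:2401105-2401310, minus strand) 193 bases before, and *MLX* (chr17:42566850-42567071, plus strand) 50 bases before.
MXD4: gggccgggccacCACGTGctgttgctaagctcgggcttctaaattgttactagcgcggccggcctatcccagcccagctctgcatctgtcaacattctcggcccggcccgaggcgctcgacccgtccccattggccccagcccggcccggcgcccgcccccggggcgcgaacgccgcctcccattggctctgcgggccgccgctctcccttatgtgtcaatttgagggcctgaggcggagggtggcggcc
MNT: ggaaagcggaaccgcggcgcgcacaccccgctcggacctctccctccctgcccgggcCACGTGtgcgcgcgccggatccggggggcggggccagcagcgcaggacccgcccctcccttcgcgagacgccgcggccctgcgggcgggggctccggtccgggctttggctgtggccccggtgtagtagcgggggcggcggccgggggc
MLX: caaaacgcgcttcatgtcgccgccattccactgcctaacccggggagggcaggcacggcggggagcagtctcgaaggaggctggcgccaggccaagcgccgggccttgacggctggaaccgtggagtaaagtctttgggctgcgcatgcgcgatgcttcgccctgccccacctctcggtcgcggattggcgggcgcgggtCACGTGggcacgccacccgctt
Neither of the windows of *MAX* held these letters. *MYC* had no window among those searched, so nothing is known here about E-boxes in its promoter. A match does not show that a factor binds there.

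Total counts were 2849979 and 3408827 in the control pools and between 5442639 and 8854899 in the knockout pools, so that every knockout pool was sequenced more deeply than both control pools. Reads came from the 3′ end of transcripts, so that a long mRNA does not yield more reads than a short one. CPM, counts scaled to a common library total with TMM factors, can therefore be set side by side between genes, as far as 3′ ends are primed and annotated alike. The smallest level that 3 counts show was between 0.389 and 0.938 CPM. Mitochondrially encoded genes took 13.9% and 8.63% of the counts in control pools 1 and 2, and between 6.71% and 7.44% in the knockout pools. Their part in the results below was not tested. The mRNA of *MTSS1* itself was at 204 and 87.9 CPM in the control pools and at 104, 139, and 49.9 CPM after knockout, so that the labels could not be checked by it. Of 11 markers of erythroid and myeloid progenitors, including *CD34*, *CD33*, *KIT*, and *GATA1*, all were counted at least 3 times in every library. Their summed level was 1700.6 and 2151.6 CPM in the control pools and 1648.98 to 2484.31 CPM in the knockout pools. The sum covers markers that differed in direction. *CD34*, *KIT*, *CSF2RB*, and *TFRC* were higher in all knockout pools than in either control pool, and *GATA1* was lower. *HBG2* ran from 42.1 to 819 CPM over the libraries. Of the 11 markers, 0 were called. Of 6 lymphoid markers, 4 had a row in the count table, and their summed level was at most 13.4 CPM. Of 6 mature myeloid markers, only 2 had a row, *CD14* and *LYZ*, with a summed level of at most 1.25 CPM. In the list drawn up for epithelial, hepatic, and stromal markers, *PECAM1* (115.92 to 238.48 CPM) and *KRT8* (11.2 to 25.3 CPM) made up nearly all of the summed level. *PECAM1* is not restricted to these tissues, so its level does not show such cells. *EPCAM*, *ALB*, *COL1A1*, and *COL1A2* had at most 0.70 CPM.

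In the knockout pools, *MAX* was the 1 member of the network that changed past the threshold, and it rose. *MYC*, *MNT*, and *MGA* did not pass the test, although each was lower in all knockout pools than in either control pool. The pools of the groups overlapped for the other 5 tested members. A gene was called changed at an adjusted p-value under 0.05 from edgeR's quasi-likelihood test together with an absolute log2-fold change over 1. The authors used the same limits but took their p-values from DESeq2, with which 1357 genes were called here instead of 745. Of the 14391 genes tested, 5.18% were called, 4.17% as higher and 1.01% as lower, so that a single call among 9 members does not stand apart from the background. At an unadjusted p-value under 0.05 there were 2 of the 9, *MAX* and *MYC*, against 23.3% of all tested genes. The median log2-fold change was −0.25 over the 9 members and −0.03 over all tested genes. In bulk RNA, fewer cells that express a gene and less RNA per cell cannot be told apart.

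**Figure D1:**
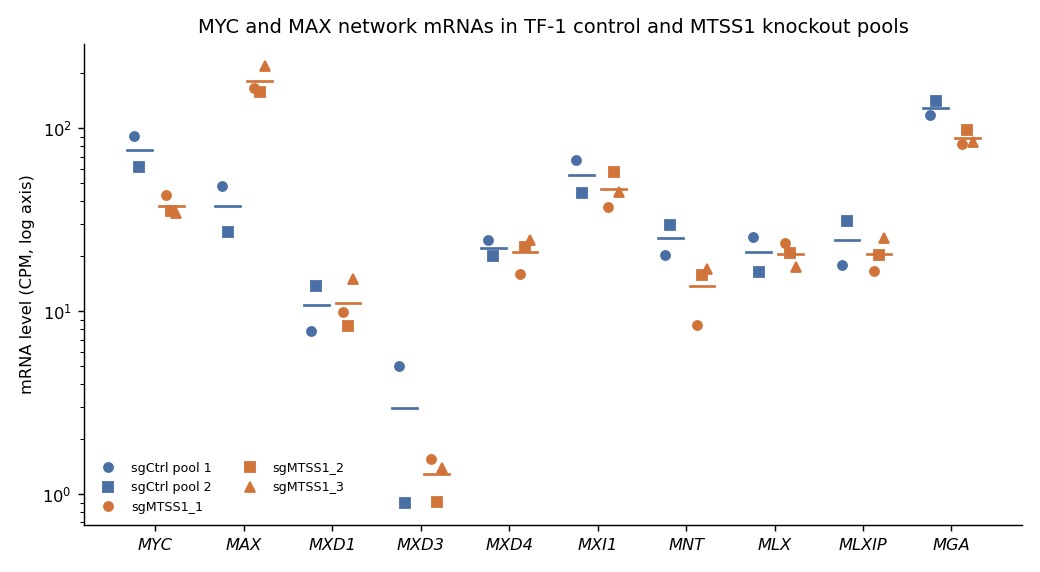
Level of each network mRNA in CPM on a log axis, with points for the 2 control pools (blue) and the 3 *MTSS1* knockout pools (orange) and bars for group means. *MAX* lies at 158 CPM or more in every knockout pool and at 48.5 CPM or less in both control pools, and *MYC*, *MNT*, and *MGA* are lower in all knockout pools.

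*MAX* (ENSG00000125952, chromosome 14 of GRCh38, 65006174 to 65102695, minus strand) encodes the common partner that MYC, the MXD proteins, MNT, and MGA need to bind DNA. It was counted 155 and 91 times in the control pools, and 1283, 877, and 1264 times in the knockout pools. This corresponds to 48.5 and 27.1 CPM in control and 166, 158, and 220 CPM in knockout pools. All knockout pools were thus far above both control pools. The means were 37.8 ± 15.1 CPM (SD, n = 2) and 182 ± 33.5 CPM (SD, n = 3). *MAX* thus rose by 2.26 on the log2 scale, or 4.80-fold, with a standard error of 0.37 (adjusted p = 0.0139). With every library thinned to the smallest total, the log2-fold change of *MAX* was 2.28 (adjusted p = 0.0115). Without the sgMTSS1_1 pool it was 2.31, but the adjusted p-value of 0.0592 missed the threshold.

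*FNTB*, which encodes a subunit of protein farnesyltransferase, overlaps *MAX* on the opposite strand, and its count moved with that of *MAX*. It was at 13.1 and 5.36 CPM in the control pools and at 22.7, 22.4, and 29.8 CPM after knockout. All knockout pools were above both control pools here too, and the log2-fold change of 1.43 had a standard error of 0.43. Its adjusted p-value of 0.0866 missed the threshold, which *FNTB* passed in DESeq2 (adjusted p = 0.0322) and without control pool 1 (2.22, adjusted p = 0.0235). The sources used here do not say whether strand was used in counting, and without strand, reads from both genes cannot be told apart where exons overlap. In the annotation, 1 of 19 *MAX* transcripts shares exon bases with *FNTB*, and the 3′ ends of the main transcripts lie 12.5 kb apart. *FNTB* in the knockout pools was at 24.9 ± 4.16 CPM (SD, n = 3), well under the level of *MAX*.

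*MYC* (ENSG00000136997, chromosome 8, 127735434 to 127742951, plus strand) encodes the activating member. Its mRNA was at 90.4 and 61.7 CPM in control pools 1 and 2, and at 43.2, 35.6, and 34.3 CPM after knockout. The groups did not overlap, and the control pools lay further apart than the knockout pools did. The log2-fold change was −1.01 (standard error 0.30), and the adjusted p-value of 0.0847 missed the threshold. *MYC* was called with control pool 2 left out (log2-fold change −1.23, adjusted p = 0.0473) and in DESeq2 (−1.02, adjusted p = 0.0466), and over all alternatives the adjusted p-value ran from 0.0466 to 0.289. *CASC11*, a long non-coding RNA that overlaps *MYC* on the opposite strand, had at most 4 counts in any library, against 197 or more for *MYC*. The other MYC family genes were at or near the limit of detection, with *MYCN* at 0.870 to 1.43 CPM and *MYCL* at 0 to 0.696 CPM.

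Among the antagonists, *MNT* (ENSG00000070444, chromosome 17, 2384073 to 2401104, minus strand) encodes the repressor that is found in most proliferating cells. It was at 20.3 and 29.8 CPM in the control pools and at 8.43, 15.9, and 17.1 CPM after knockout. All knockout pools were lower, but the log2-fold change of −0.87 (standard error 0.39) had an adjusted p-value of 0.220. *MXI1*, also known as *MXD2*, was the most abundant antagonist, at 67.2 and 44.4 CPM in control and 37.0, 58.0, and 44.7 CPM in knockout pools. These ranges overlapped (log2-fold change −0.26, adjusted p = 0.680), and the value turned to 0.08 without control pool 1.

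*MXD4*, whose product is linked to the end of proliferation, was at 16.1 to 24.5 CPM over the 5 libraries, and its log2-fold change was −0.08 (standard error 0.33). *MXD1*, which is induced as myeloid cells mature, was at 7.82 to 15.0 CPM, and its log2-fold change was 0.03 (standard error 0.42). For both, a difference between the groups was not detectable beyond the spread between pools, and the standard errors leave room for moderate changes either way. *MXD1* overlaps *SNRNP27* on the same strand, so its count is uncertain. *MXD3*, whose product is made in cells in S phase, was counted 16 and 3 times in control and 12, 5, and 8 times in knockout pools and was not tested. Outside control pool 1 its level was at most 1.56 CPM. It overlaps *RAB24* on the same strand and *PRELID1*, which had no row in the count table, on the opposite strand.

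*MGA* (ENSG00000174197, chromosome 15, 41621134 to 41773081, plus strand), which encodes the largest protein of the network, was at 119 and 141 CPM in the control pools and at 82.1, 98.6, and 83.9 CPM after knockout. The groups did not overlap, but the log2-fold change of −0.56 (standard error 0.28) had an adjusted p-value of 0.266. It was −0.24 after correction for GC content and length of transcripts. The parallel branch did not differ beyond its spread. *MLX* was at 16.4 to 25.6 CPM and *MLXIP* at 16.6 to 31.3 CPM over the 5 libraries, with log2-fold changes of −0.02 (standard error 0.34) and −0.25 (standard error 0.36). *MLX* overlaps *PSMC3IP* on the opposite strand, so its count is uncertain where strand was not used. *PSMC3IP* was at 7.50 and 3.87 CPM in the control pools and at 1.57 to 3.07 CPM in the knockout pools. *MLXIPL*, which encodes the MondoA relative ChREBP, was counted only 1 and 20 times in control and 17, 6, and 38 times in knockout pools, and its log2-fold change of 0.05 had a standard error of 0.97, which is too wide to tell a change from none. Lower values in all knockout pools were thus seen for 3 of the 9 tested members, while 19.2% of all tested genes had this pattern, and higher values for 1 of 9, against 22.2%.

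**Figure D2:**
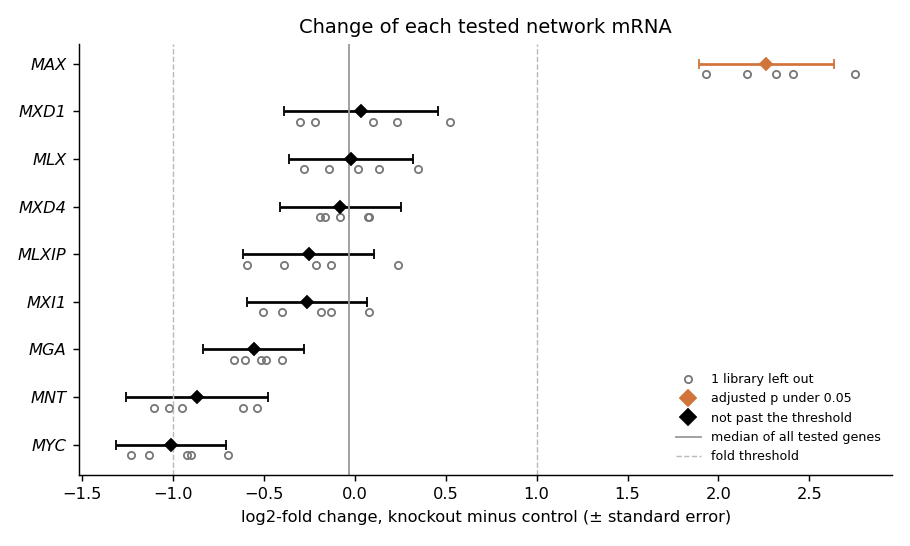
Log2-fold change between knockout and control pools for the 9 tested members (diamonds, bars give the standard error), with the values after leaving out 1 library each as open circles. *MAX* stays between 1.93 and 2.75 in all of these, and *MYC* between −1.23 and −0.70, while *MXD1*, *MLX*, *MXD4*, *MLXIP*, and *MXI1* lie on both sides of 0.

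The order of the members by level differed between the groups. In control pools, *MGA* was highest with a mean of 130 CPM, followed by *MYC* (76.0 CPM), *MXI1* (55.8 CPM), and *MAX* (37.8 CPM), and then by *MNT*, *MLXIP*, *MXD4*, and *MLX*, which lay between 21.0 and 25.1 CPM. From *MYC* down to *MLX*, the ranges of neighbors in this order overlapped. *MXD1* (10.8 CPM) and *MXD3* (2.95 CPM) were lowest, each without overlap with the next higher gene. In knockout pools, *MAX* was highest with 182 CPM and did not overlap with *MGA* (88.2 CPM), which did not overlap with *MXI1* (46.5 CPM). *MXI1* and *MYC* (37.7 CPM) overlapped, and so did the neighbors from *MXD4* (21.0 CPM) down to *MXD1* (11.0 CPM).

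Within a library, the ratio of 2 mRNAs does not depend on how libraries are scaled to each other. *MAX* mRNA amounted to 0.536 and 0.440 times that of *MYC* in control pools 1 and 2. In the knockout pools it amounted to 3.85, 4.45, and 6.42 times that of *MYC*. *MAX* was thus below *MYC* in both control pools and above it in all knockout pools. The antagonists *MXD1*, *MXD3*, *MXD4*, *MXI1*, and *MNT* together had 125 and 109 CPM in control and 72.9, 105, and 103 CPM in knockout pools. Relative to *MYC*, they were at 1.38 and 1.76 in control and at 1.69, 2.96, and 2.99 in knockout pools, where the sgMTSS1_1 pool lies between the control pools. The sum of all partners of MAX in this set, that is *MYC*, *MGA*, and these antagonists, averaged 322 ± 15.9 CPM in the control pools (SD, n = 2) and 219.52 ± 20.7 CPM in the knockout pools (SD, n = 3). *MAX* came to 0.116 ± 0.0411 of this sum (SD, n = 2) in control and to 0.832 ± 0.168 (SD, n = 3) in knockout pools. These sums and ratios are descriptions of mRNA and were not tested.

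**Figure D3:**
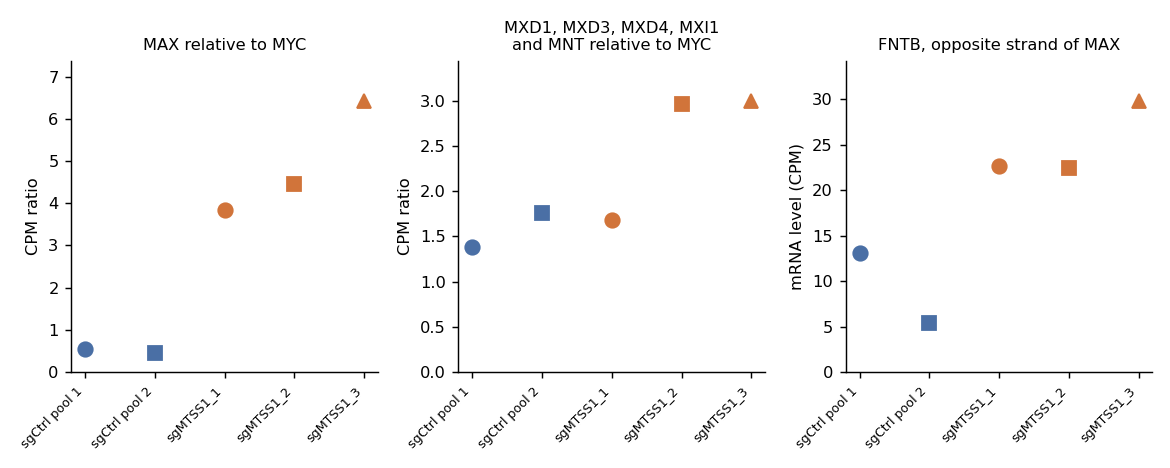
Ratio of *MAX* to *MYC* mRNA (left), ratio of 5 antagonist mRNAs to *MYC* mRNA (middle), and level of *FNTB* in CPM (right) for each library, on linear axes from 0. *MAX* relative to *MYC* is below 1 in both control pools (blue) and 3.85 or more in the knockout pools (orange), while for the antagonists the sgMTSS1_1 pool lies within the control range.

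The 5 tested genes with a profile over the 5 libraries most like that of *MYC* were *HRC*, *HSPA8P9*, *FBXO34*, *AKAP10*, and *STAM*. Likeness was measured as the root mean square difference of centred log2 CPM, which was 0.0567 for *HRC* and 0.0773 for *STAM*. *STAM*, the most abundant of them, was at 139 and 91.2 CPM in the control pools and at 50.6 to 58.0 CPM in the knockout pools. Since they were picked for this profile, all 5 had to be lower in the knockout pools, as *MYC* was, and nothing is read from that.

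Around the network, 8 lists of related genes were read from the same fit. Of 13 other E-box binding factors of the same protein class, 10 were tested and 0 were called by edgeR's quasi-likelihood test, against 5.18% of all tested genes. At an unadjusted p-value under 0.05 there was 1 of the 10, against 23.3%. DESeq2 and limma-voom called 0 of them, against 1357 and 634 of all 14391 tested genes. The median log2-fold change was 0.02. *TFAP4*, which encodes an E-box factor activated by MYC, was at 14.4 and 19.7 CPM in control and at 21.3, 35.9, and 41.4 CPM in knockout pools (log2-fold change 0.94, adjusted p = 0.175). *TFEB*, a regulator of lysosomal genes, had a log2-fold change of −1.09 (adjusted p = 0.282), and *SREBF1*, a regulator of lipid synthesis, of 0.68 (adjusted p = 0.357). *TFEB* had only 8 to 20 counts per library, and its standard error was 0.56.

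Of 18 tested cofactors of MYC, 0 were called by edgeR, against 5.18% of all tested genes. An unadjusted p-value under 0.05 was found for 5, near the 23.3% of all tested genes. DESeq2 called 3 of the 18, against 1357 of all 14391 tested genes, and limma-voom 0, against 634. The median log2-fold change was 0.15. *TRRAP*, a scaffold for histone acetyltransferases that MYC recruits, was at 25.0 and 27.7 CPM in control and at 9.99, 13.2, and 13.4 CPM in knockout pools (log2-fold change −1.11, adjusted p = 0.0769). *ACTL6A*, a subunit of the same assemblies, had a log2-fold change of −1.15 (adjusted p = 0.0784), and *KAT2A*, an acetyltransferase, of 1.19 (adjusted p = 0.0792). These 3 genes are the ones DESeq2 called. Without control pool 1, *ACTL6A* was at −1.50 and *KAT2A* at 1.51. *KAT2A* overlaps another gene on the same strand, so its count is uncertain.

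Regulators of the stability and translation of MYC held 27 tested genes, of which 2 rose and 1 fell. This is 11.1% called, against 5.18% of all tested genes. *PIM2*, which encodes a kinase that stabilizes MYC, was at 54.7 and 82.2 CPM in control and at 729, 647, and 803 CPM in knockout pools. All knockout pools were several times above both control pools, with a log2-fold change of 3.41 (adjusted p = 0.00457). *PIM1*, which encodes a related kinase, rose by 1.94 on the log2 scale (adjusted p = 0.0332). This call was lost without control pool 2 (adjusted p = 0.0736), the sgMTSS1_1 pool (0.101), or the sgMTSS1_3 pool (0.0702). *SET*, whose product inhibits the phosphatase PP2A that marks MYC for decay, fell from 1382 ± 5.53 CPM (SD, n = 2) to 448 ± 99.9 CPM (SD, n = 3), a log2-fold change of −1.63 (adjusted p = 0.0259). *SET* has 19 pseudogenes named after it, so its count is uncertain, and its call was lost without any 1 of the knockout pools (adjusted p from 0.0691 to 0.160). The median was 0.08. Without the sgMTSS1_1 pool, 1 gene of this list was called, against 111 of all 13358 genes tested in that fit.

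In the SIN3 corepressor, through which the MXD proteins, MXI1, and MNT repress, 1 of 18 tested genes was called, or 5.56%, close to the 5.18% of all tested genes. *RBBP4*, a histone-binding subunit, was at 227 and 250 CPM in control and at 72.9, 93.7, and 72.9 CPM in knockout pools, with a log2-fold change of −1.58 (adjusted p = 0.0186). It was lower in all knockout pools, but was not called when any 1 knockout pool was left out (adjusted p from 0.0548 to 0.0987), and it has 7 named pseudogenes. The corepressor subunit gene *BRMS1* (log2-fold change 1.39, adjusted p = 0.0556) and the deacetylase gene *HDAC1* (0.96, adjusted p = 0.0822) did not pass. The scaffold genes *SIN3A* and *SIN3B* had log2-fold changes of −0.68 and 0.24, and the median of the list was 0.03. Without control pool 1, the log2-fold change of *BRMS1* was 1.64.

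The polycomb variant that contains MGA and MAX was represented by 11 further subunit genes, all of them tested, of which 2 rose and 1 fell, or 27.3% called, against 5.18% of all tested genes. *TFDP1*, which encodes the dimer partner of E2F6 and has 3 named pseudogenes, was at 69.4 and 59.9 CPM in control and at 191, 174, and 157 CPM in knockout pools, with a log2-fold change of 1.43 (adjusted p = 0.0276). *CBX3*, the gene of a heterochromatin protein, rose by 1.56 on the log2 scale (adjusted p = 0.0438). *RING1*, which encodes a ubiquitin ligase subunit, was at 94.4 and 84.0 CPM in control and at 21.4, 40.4, and 37.2 CPM in knockout pools, with a log2-fold change of −1.44 (adjusted p = 0.0422). In 6 of the 11 genes every knockout pool was above both control pools, against 22.2% of all tested genes, and in 1 every knockout pool was below, against 19.2%. The median was 0.44. None of the 3 calls held without the sgMTSS1_1, the sgMTSS1_2, or the sgMTSS1_3 pool. In these fits edgeR called 0 of the 11 genes, and 4 to 6 had an unadjusted p-value under 0.05. Calls also fell over all tested genes, to 111 of 13358, 347 of 13419, and 191 of 13303, against 745 of 14391 with all libraries. Unadjusted p-values under 0.05 were found for 2422, 2662, and 2246 of them. The loss was thus not particular to these genes. *RING1* (adjusted p = 0.0567) and *CBX3* (0.0559) also missed the threshold without control pool 1, and *RING1* without control pool 2 (0.0510). *TFDP1* held without either of them. With libraries thinned to the smallest total, *RING1* was not called (adjusted p = 0.0587), and *CBX3* was not with DESeq2 size factors (0.0505). *CBX3* has 10 named pseudogenes and overlaps *HNRNPA2B1* on the opposite strand, so its count is uncertain.

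Among 9 genes known as targets of MondoA or ChREBP, 0 were called by edgeR, against 5.18% of all tested genes. An unadjusted p-value under 0.05 was found for 2, a share close to the 23.3% of all tested genes. DESeq2 called 1 of the 9, against 1357 of all 14391 tested genes, and limma-voom 0, against 634. *PFKFB3*, which encodes an activator of glycolysis, was at 12.8 and 6.26 CPM in control and at 24.0, 31.1, and 30.8 CPM in knockout pools (log2-fold change 1.58, adjusted p = 0.0522). It was called without control pool 1 (2.20, adjusted p = 0.0213). *HK2*, the gene of hexokinase 2, had a log2-fold change of 1.19 (adjusted p = 0.115) and *FASN*, the gene of fatty acid synthase, of −0.62 (adjusted p = 0.267). *TXNIP* and *ARRDC4*, the genes by which MondoA activity is usually read, had log2-fold changes of 0.45 and −1.02 and were not called. *ARRDC4* was counted only 15 and 14 times in control and 11, 17, and 12 times in knockout pools, and its standard error was 0.53.

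Of 43 genes known as activated by MYC, 40 were tested, 2 rose, 1 fell, and 37 were not called. The share called, 7.5%, was near the 5.18% of all tested genes. *SLC1A5*, which encodes a glutamine transporter, was at 70.4 and 59.9 CPM in control and at 257, 327, and 378 CPM in knockout pools, with a log2-fold change of 2.30 (adjusted p = 0.0109). *TFAM*, the gene of a mitochondrial DNA-binding factor, rose by 1.84 on the log2 scale (adjusted p = 0.0256), and *SRM*, the gene of spermidine synthase, fell by 1.39 (adjusted p = 0.0462). Both calls were lost without control pool 2 (adjusted p = 0.0515 and 0.0680) or without any 1 knockout pool (0.0538 to 0.0682 for *TFAM* and 0.114 to 0.146 for *SRM*), whereas that of *SLC1A5* held in each case. *TFAM* has 2 and *SRM* 3 named pseudogenes. In 20 of the 40 genes every knockout pool was above both control pools, against 22.2% of all tested genes, and in 3 every knockout pool was below, against 19.2%. Ribosomal protein genes took 7.56% and 9.31% of the counts in control and 17.7%, 11.9%, and 13.9% in knockout pools, highest in the sgMTSS1_1 pool, and their part in this count was not tested. The median was 0.36, above that of all tested genes, while *MYC* itself had a negative value. *ODC1*, *CAD*, and *NCL*, often used as readouts of MYC, had log2-fold changes of 0.06, −0.12, and 0.09. Without the sgMTSS1_1, sgMTSS1_2, or sgMTSS1_3 pool 1 gene was called in each case. Calls over all tested genes fell to 111 of 13358, 347 of 13419, and 191 of 13303 in these fits. *CDK4*, *NOP2*, and *PHB1* had too few counts to be tested, with *CDK4* at 0 to 4 counts. Genes such as these are commonly expressed in dividing cells, so a low count in this table does not show that a gene is silent.

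Of 10 tested genes known as repressed by MYC, 1 rose, and a single call among so few does not stand apart from the 5.18% of all tested genes. *NDRG1*, a gene of differentiation and stress responses, was at 6.25 and 3.58 CPM in control and at 25.3, 25.3, and 38.3 CPM in knockout pools, with a log2-fold change of 2.59 (adjusted p = 0.0142). It was not called without the sgMTSS1_1 pool (adjusted p = 0.0591), and it overlaps another gene on the same strand, so its count is uncertain. The cell cycle inhibitor genes *CDKN1B* (0.96, adjusted p = 0.132) and *CDKN2C* (−0.92, adjusted p = 0.122) had log2-fold changes of opposite sign and did not pass, although *CDKN1B* did without control pool 1 (1.39, adjusted p = 0.0491). *CDKN1A*, the repressed target described most often, was at −0.34 (adjusted p = 0.720). The median of the list was −0.02.

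**Figure D4:**
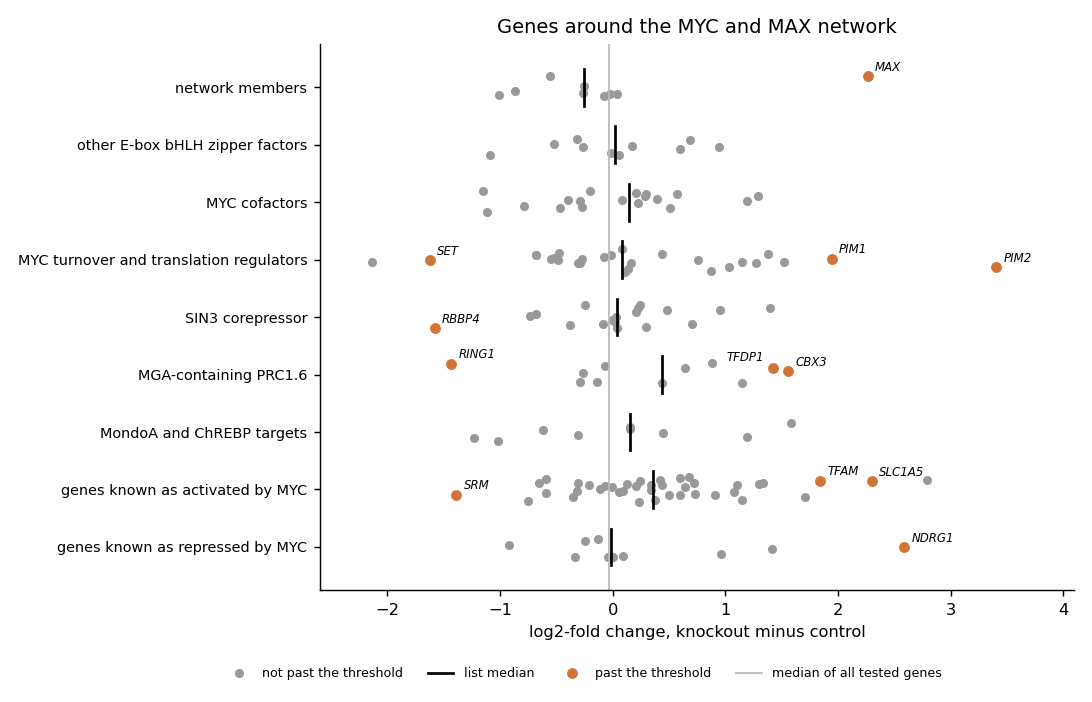
Log2-fold change of each tested gene by list (points, orange where past the threshold, vertical spread only for legibility), with the list median as a black bar and the median of all tested genes as a gray line. *MAX* and *PIM2* lie furthest to the right of their lists, and most lists hold values on both sides of 0.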

How the data were processed

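RNA-seq libraries from 5 pools of TF-1 clones were prepared by the authors with a QuantSeq 3′ mRNA kit and sequenced as single-end reads. The authors trimmed adapters with BBDuk, aligned reads to GRCh38 with HISAT2 v2.1.0, removed reads without a unique position with SAMtools v1.10, and deposited raw counts per Ensembl gene. The program and annotation used for counting and the use of strand are not given in the sources used here. The deposited counts entered edgeR 4.0.16 (R 4.3.3) after a filter on low counts (filterByExpr, minimum count 10), which 14391 genes passed. The model held the condition alone. P-values, with Benjamini-Hochberg adjustment across these genes, rest on the spread between the pools of clones of 1 cell line that the authors kept. The standard error is the log2-fold change divided by the root of the F statistic. The limit of 3 counts covers counting error only. Alternatives used DESeq2 1.42.0, limma 3.58.1 (voom), other scaling, filters, thinned libraries, offsets for GC content and length (mgcv 1.9.3), a block, and each library left out.

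Gene names, positions, and transcripts come from GENCODE release 44 on GRCh38, and promoters from RefSeq. The members and lists were chosen with earlier results of these data known. Named in each list were up to 3 called genes per direction with the largest change and, where fewer than 3 were called, the tested genes with the smallest p-values. Some genes were added after their values were seen (*SIN3A*, *SIN3B*, *TXNIP*, *ARRDC4*, *ODC1*, *CAD*, *NCL*, *CDKN1A*, *MLXIPL*, *MYCN*, *MYCL*, *CDK4*, *NOP2*, *PHB1*, *FNTB*, *CASC11*, *PSMC3IP*). For likeness to *MYC*, 0.5 CPM was added before taking log2.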

Additional observations from a re-analysis of the deposited data

How the results depend on the processing

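The number of called genes among all tested genes was 1357 in DESeq2 and 1374 without a filter, and 111 (without the sgMTSS1_1 pool) to 1349 (without control pool 1) with 1 library left out. The number of called network members was 2 in DESeq2 and 0 to 2 with 1 library left out. *MYC* was called in DESeq2 (−1.02), and *MYC* was between −1.23 and −0.70, and *MAX* between 1.93 and 2.75, with 1 library left out. With library size alone, the median log2-fold change over tested genes was −0.17 instead of −0.03.

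For members near 0, the sign of the log2-fold change turned. *MXD1* was at −0.079 with library size alone, −0.20 with the block, −0.10 with the block and the offsets for GC content and length, and −0.30 to 0.52 with 1 library left out. *MXD4* was at 0.067 without a filter, 0.019 with the offsets, 0.012 with the offsets and the block, and −0.19 to 0.080 with 1 library left out. *MLX* was at 0.0024 in limma-voom, 0.12 without a filter, 0.058 with at least 10 counts in every library, 0.11 with the block, 0.063 with the block and the offsets, and −0.28 to 0.35 with 1 library left out. *MXI1* ranged from −0.50 to 0.076, *MLXIP* from −0.59 to 0.24, and *MTSS1* from −1.04 to 0.16 in the same way. The cause was not tested.

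The list counts below go with calls over all tested genes that moved too. Of 14391 genes, DESeq2 called 1357, limma-voom 634, and edgeR 800 with library size alone. EdgeR called 1094 with the block, 984 with the offsets, and 717 with both. It called 1374 of 27328 without a filter, and 601 of 10734 with at least 10 counts in every library. Called cofactors of MYC numbered 3 in DESeq2, 1 with library size alone, 2 without a filter, and 0 with any 1 knockout pool left out. Called regulators of MYC turnover and translation numbered 6 in DESeq2 and without a filter, 5 with at least 10 counts in every library, with the block, and with the offsets, and 1 to 6 with 1 library left out. Called SIN3 genes numbered 2 in DESeq2, without a filter, and with at least 10 counts in every library, 0 with the block and the offsets, and 0 to 2 with 1 library left out. Called genes of the MGA complex numbered 0 to 2 with 1 library left out. Called MondoA and ChREBP targets numbered 1 in DESeq2, without a filter, with at least 10 counts in every library, with the block, and with the offsets, and 0 to 1 with 1 library left out. Called genes among those activated by MYC numbered 7 in DESeq2, 5 in limma-voom, 9 without a filter, 5 with at least 10 counts in every library, 7 with the block, 6 with the offsets, and 1 to 6 with 1 library left out. Called genes among those repressed by MYC numbered 0 to 2 with 1 library left out. Of the named genes called in the lists, only *PIM2* and *SLC1A5* were called under every alternative. With the block and the offsets, *SET*, *RBBP4*, *CBX3* (adjusted p = 0.0878), and *SRM* were not called, and *SRM* was not with at least 10 counts in every library (adjusted p = 0.0550). With 1 control pool left out, the lone pool is assumed to vary like the knockout pools.

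The numbers 1 and 2 occur in both groups, but nothing says that pools of the same number were handled together. Deviations from the group means had a correlation of 0.196 for number 1 and 0.108 for number 2, across genes, which are not replicates. Control pool 2 and knockout pool 3, which share no number, had 0.135. The deviations of the 2 control pools are exact opposites, and those of the 3 knockout pools sum to 0. These correlations therefore depend on each other and cannot decide whether the numbers mark pairs. With the number as a block, 1094 of all tested genes were called by edgeR, *MAX* was at 2.16 (adjusted p = 0.000532) and *MYC* at −0.93 (adjusted p = 0.185). The number 3 occurs only in a knockout pool, so that the comparison in this fit rests on the pools numbered 1 and 2. Its smaller p-value for *MAX* is therefore not read as stronger evidence.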
